A study of Mus musculus with 8 samples.

Results

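The adenylate cyclases and cAMP effectors described here are 10 of the 48709 genes counted in mouse islets, taken by their gene names. They are 6 cyclases (Adcy3, Adcy5, Adcy6, Adcy7, Adcy8 and Adcy9), 2 phosphodiesterases (Pde3b and Pde8b) and the 2 Epac genes (Rapgef3 and Rapgef4). Bulk RNA sequencing was done on hand-picked islets of 1-year-old C57BL/6 mice. The control group carried Flox/Flox alleles, and the other group, β-Tead1-KO, is labelled as a loss of Tead1, a DNA-binding partner of the Hippo coactivators YAP and TAZ, in β-cells. The Cre line that would drive this loss is not given in the sources used here, so the fraction of β-cells reached is not known. Each genotype had 2 libraries, each run on 2 lanes. The design text gives 3 pooled samples per library, whereas the descriptions carry 1 or 2 numbers per library, so the pool size is unclear. The library was the replicate (n = 2), and p-values measure only the spread between these 4 libraries.

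Adenylate cyclases make cyclic AMP (cAMP) from ATP, driven by the stimulatory G protein Gs and held back, for several of them, by Gi. Calcium with calmodulin stimulates Adcy1 and Adcy8, whereas calcium inhibits Adcy5 and Adcy6. Phosphodiesterases break cAMP down, and in β-cells cAMP amplifies glucose-stimulated insulin secretion through protein kinase A and through Epac proteins, which activate the small GTPase Rap.

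Exon reads totalled 14069569 to 26387280 per library. Intron reads made up 28.8% and 43.1% of gene reads in Flox libraries 1 and 2 and 29.4% and 38.0% in the β-Tead1-KO-labelled pair, so library 2 was the higher of both pairs. β-cell markers were abundant in all 4 libraries, with a summed level of 185851 to 224340 CPM (exon reads scaled by TMM to a common library total). Tead1, the targeted gene, measured 101 and 124 CPM in Flox and 137 and 163 CPM in the other libraries, a log2 fold change of 0.41 (SE 0.19, adjusted p = 0.347 in edgeR's quasi-likelihood test with Benjamini-Hochberg adjustment). On reads across exon-exon junctions the log2 fold change was 0.10 (SE 0.21), and on intron reads 1.84 (SE 0.60). The level of Tead1 was thus not lower, but such gene-level counts cannot check the label, so the second group is called β-Tead1-KO-labelled. Which exons the Flox alleles flank is not given in the sources used here, and reads of Tead1 exons outside them check nothing. Flox library 2 stood apart in immediate early genes: Fos measured 101 CPM there and between 2023 and 2090 CPM in the other 3 libraries.

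Of the 10 genes, Adcy8 was the one that passed the test, and it was higher in β-Tead1-KO-labelled libraries by 30.8-fold (95% interval of the fit, 19.5 to 48.5). No other cyclase, phosphodiesterase or Epac gene among them passed. Over all 15014 genes tested, 504 passed at an adjusted p below 0.05, or 3.36%, of which 264 were higher (1.76%) and 240 lower (1.60%). Values of the 2 groups did not overlap for 7 of the 10 genes, beside 48.0% of all genes tested. The median log2 fold change of the 10 genes was 0.10, beside -0.01 for all genes.

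**Figure D1:**
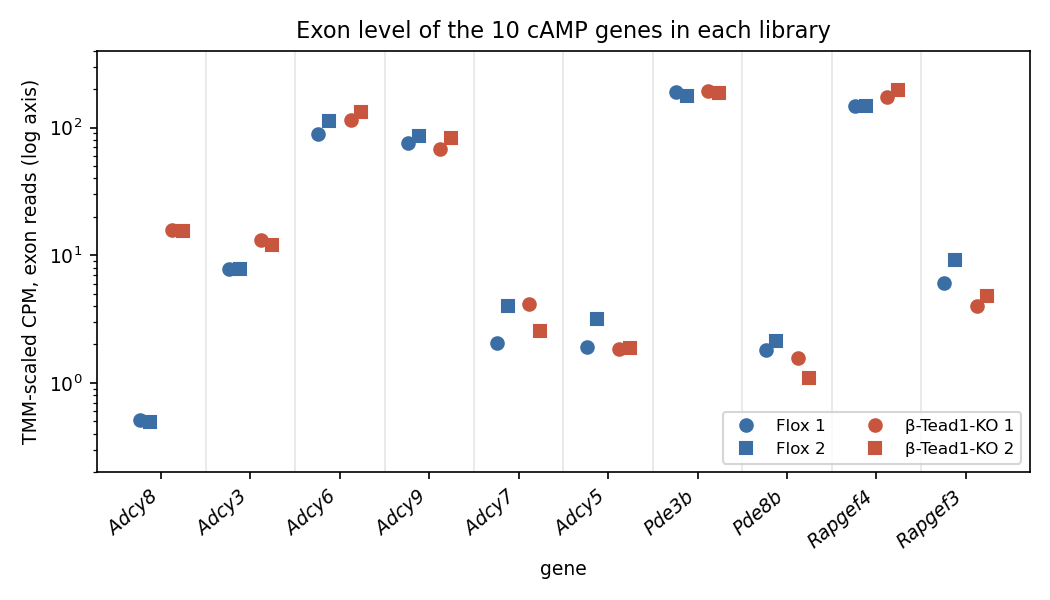
TMM-scaled CPM of total exon reads on a log axis for each of the 10 genes, with 1 point per library (blue, Flox; red, β-Tead1-KO-labelled; circles, library 1; squares, library 2). Adcy8 lies near 0.5 CPM in both Flox libraries and reaches 15.8 and 15.5 CPM in the other pair, while Pde3b and Rapgef4 are the highest in every library.

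Adcy8 spans chr15:64699042-64922296 on the minus strand (mm10). Its exon reads numbered 11 and 7 in the Flox pair, whereas the β-Tead1-KO-labelled libraries held 353 and 413. As levels these were 0.511 and 0.494 CPM, against 15.8 and 15.5 CPM, so the groups lay far apart. The closeness of the Flox pair rests on 11 and 7 reads, too few to measure the spread between those libraries. The rise was 4.94 on the log2 scale (SE 0.27, adjusted p = 0.00226, edgeR's quasi-likelihood test with Benjamini-Hochberg adjustment), higher in 2 of 2 libraries. Summed over libraries and scaled by library totals, 18 reads against 766 gave a ratio of 31.0 with an exact 95% interval of 19.5 to 52.7, which covers counting error only. Its Flox reads were just enough to pass the filter on low counts on their own. In bulk islets, more cells with Adcy8 RNA and more of this RNA per cell cannot be told apart.

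The other read classes gave the same direction for Adcy8. On junction and unique reads the gene passed the filter only through the β-Tead1-KO-labelled group, so those tests add no separate support. Reads across exon-exon junctions, which come from spliced RNA, numbered 8 and 2 in Flox and 175 and 199 in β-Tead1-KO-labelled libraries. The junction log2 fold change was 4.80 (adjusted p = 0.00214, edgeR with Benjamini-Hochberg adjustment), beside 4.20% of genes called on junction reads. Intron reads, which come mostly from unspliced RNA, numbered 31 and 76 in Flox and 546 and 1538 in the other group. On the intron scale the levels were 5.24 and 4.72 CPM against 73.3 and 77.4 CPM, without overlap. The intron log2 fold change was 3.92 (adjusted p = 0.00579, edgeR with Benjamini-Hochberg adjustment), where 0.748% of genes were called. Of the exon reads of Adcy8, 68.1% were unique, so part of its count may be shared with similar sequence. With unique reads alone the log2 fold change was 4.75 (adjusted p = 0.00153, edgeR with Benjamini-Hochberg adjustment).

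**Figure D2:**
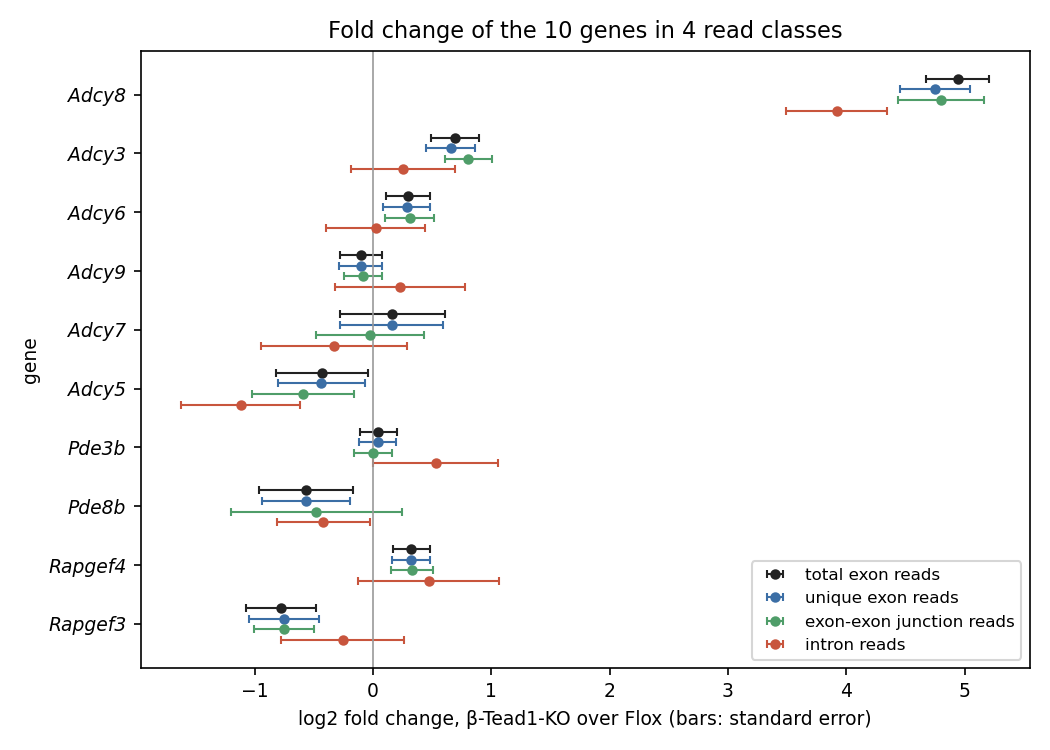
Log2 fold change, β-Tead1-KO-labelled libraries over Flox, with its standard error as a bar, for each of the 10 genes in total exon, unique exon, junction and intron reads. Adcy8 lies between 3.92 and 4.94 in all 4 classes, and no other gene of the 10 reaches a log2 fold change of 2 in either direction.

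Adcy3, a cyclase best known for odorant signalling and found in primary cilia, lies at chr12:4133103-4213525. It measured 7.76 and 7.76 CPM in Flox and 13.2 and 11.9 CPM in β-Tead1-KO-labelled libraries. The groups did not overlap, yet the log2 fold change of 0.69 (SE 0.20) did not pass (adjusted p = 0.154, edgeR with Benjamini-Hochberg adjustment). Its fold of 1.62 had an unadjusted 95% interval of 1.15 to 2.28. On junction reads the value was 0.81 (adjusted p = 0.0781, edgeR with Benjamini-Hochberg adjustment). Adcy3 overlaps Cenpo on the other strand, and the use of strand in the counting is not given in the sources used here. Cenpo had 114 and 109 exon reads in Flox and 102 and 147 in the other group. Of the exon reads of Adcy3, 81.8% were unique.

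Adcy6 and Adcy9 were the abundant cyclases of these islets. Of their exon reads, 85.0% were unique for Adcy6 and 100% for Adcy9, so part of the Adcy6 count may be shared with similar sequence. Adcy6, a calcium-inhibited cyclase at chr15:98589994-98607633, measured 88.7 and 111.6 CPM in Flox and 114.6 and 131.4 CPM in β-Tead1-KO-labelled libraries. Those ranges stood apart narrowly, and the fold of 1.23 had an unadjusted 95% interval of 0.897 to 1.68 (adjusted p = 0.502, edgeR with Benjamini-Hochberg adjustment). Adcy9, a widely expressed cyclase that responds weakly to forskolin, lies at chr16:4287529-4420498. It measured 75.6 and 86.6 CPM in Flox and 68.0 and 83.4 CPM in the other group. Its groups overlapped, with a fold of 0.934 and an interval of 0.690 to 1.26 (adjusted p = 0.838, edgeR with Benjamini-Hochberg adjustment).

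Adcy5 and Adcy7 were low. Adcy5, the second calcium-inhibited cyclase and a gene near which human type 2 diabetes variants lie, spans chr16:35154877-35305737. It measured 1.90 and 3.17 CPM in Flox and 1.84 and 1.88 CPM in β-Tead1-KO-labelled libraries, where the higher Flox value came from library 2. On the log2 scale the difference was -0.43 (SE 0.39, adjusted p = 0.648, edgeR with Benjamini-Hochberg adjustment), with a fold interval of 0.383 to 1.44. On intron reads it was -1.12 (adjusted p = 0.556, edgeR with Benjamini-Hochberg adjustment). Adcy7, a cyclase prominent in blood cells, lies at chr8:88272403-88329962. Its levels were 2.04 and 4.02 CPM in Flox and 4.17 and 2.55 CPM in the other group, so libraries of 1 genotype differed more than the genotypes. On the log2 scale the difference was 0.16 (SE 0.45, adjusted p = 0.897, edgeR with Benjamini-Hochberg adjustment).

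Per kilobase of exon, the scale on which genes can be set side by side, Pde3b led in Flox with 26.7 CPM per kb (SD 1.34). Rapgef4 followed with 22.1 (SD 0.167), then Adcy6 with 16.6 (SD 2.70) and Adcy9 with 15.6 (SD 1.50). The library ranges of Adcy6 and Adcy9 overlapped, so their order is not resolved. A gap of more than 10 CPM per kb separated these 4 genes from the rest. Adcy3 stood at 1.24 and Rapgef3 at 1.19 CPM per kb, with overlapping ranges. Adcy7 (0.450), Adcy5 (0.362) and Pde8b (0.334) formed a low group in which neighbours overlapped. Adcy8 was the lowest at 0.0998 CPM per kb, and in exon CPM it stood at percentile 2.90 of all genes tested. In the β-Tead1-KO-labelled group its level was 3.11 CPM per kb (SD 0.0448) and ranked 5 of 10, above Adcy3 at 2.01 and well below Adcy9 at 14.6. Rapgef4 at 27.7 and Pde3b at 27.5 were level there.

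The make-up of the cyclase transcripts differed accordingly. Adcy8 made up 0.325% and 0.261% of the summed per-kilobase level of the 6 cyclases in Flox and 8.22% and 7.08% in β-Tead1-KO-labelled libraries. Adcy9 made up 46.6% and 44.3% in Flox and 34.2% and 36.9% in the other group. Adcy6 made up 47.2% and 49.3% in Flox against 49.8% and 50.2%. The summed level was 31.2 and 37.6 CPM per kb in Flox and 38.3 and 43.5 in the other group, and these shares are a description without a test. Over all 10 mouse cyclases, the calcium-stimulated pair Adcy1 and Adcy8 went from 0.651% and 0.444% to 11.1% and 9.89%. The remaining 8 cyclases together measured 32.5 and 38.4 CPM per kb in Flox and 36.3 and 41.5 in the other group, so those ranges overlapped.

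**Figure D3:**
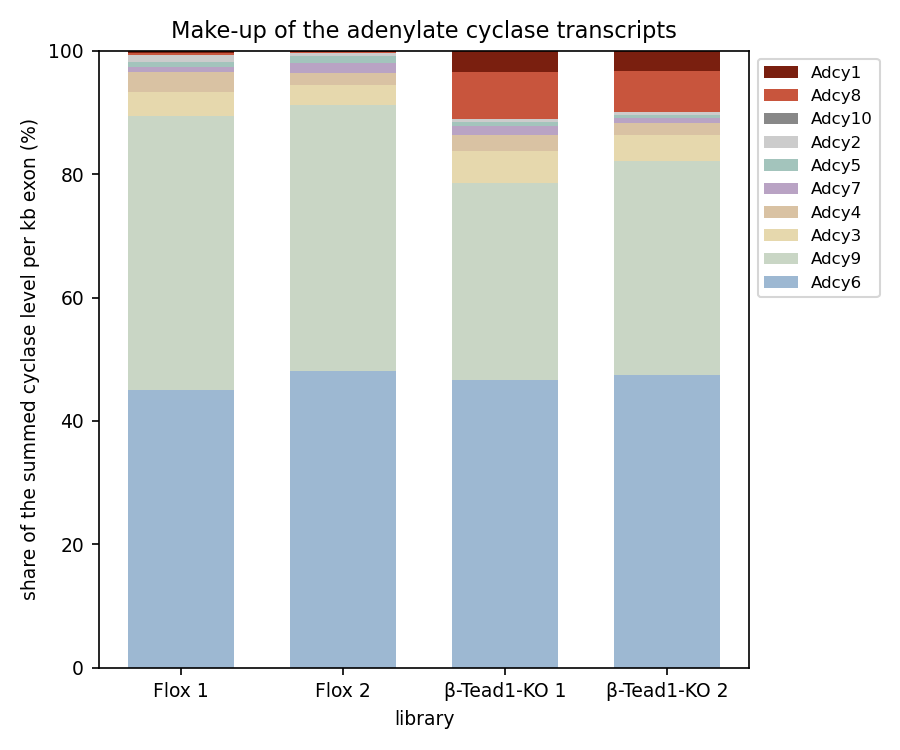
Share in percent of each of the 10 mouse adenylate cyclases in their summed exon level per kilobase, stacked to 100 for each library. Adcy6 and Adcy9 fill most of every bar, and Adcy1 with Adcy8 take 11.1% and 9.89% in the β-Tead1-KO-labelled libraries against 0.651% and 0.444% in Flox.

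Pde3b, the insulin-activated phosphodiesterase that restrains insulin secretion in β-cells, was the most abundant of the 10 genes in Flox. It lies at chr7:114415281-114539251, 1.51 Mb from Tead1. Its levels were 190.8 and 177.7 CPM in Flox and 193.6 and 186.5 CPM in β-Tead1-KO-labelled libraries, and the groups overlapped. The fold was 1.03, with an unadjusted 95% interval of 0.790 to 1.35 (adjusted p = 0.921, edgeR with Benjamini-Hochberg adjustment). Pde8b, a cAMP-specific phosphodiesterase that is insensitive to the common inhibitor IBMX, lies at chr13:95024454-95250336. It measured 1.81 and 2.12 CPM in Flox and 1.57 and 1.09 CPM in the other group. The values were lower without overlap, but 29 to 39 exon reads per library gave a wide fold interval of 0.344 to 1.34 around 0.677 (adjusted p = 0.554, edgeR with Benjamini-Hochberg adjustment).

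Rapgef4 encodes Epac2, the Epac form of β-cells that links cAMP to the exocytosis machinery, at chr2:71981240-72257474. It measured 148.4 and 146.8 CPM in Flox and 173.6 and 196.2 CPM in β-Tead1-KO-labelled libraries. The β-Tead1-KO-labelled values were both higher, and the fold of 1.25 had an unadjusted 95% interval of 0.954 to 1.64 (adjusted p = 0.391, edgeR with Benjamini-Hochberg adjustment). Antisense genes lie on the other strand of Rapgef4. The largest of them in reads, Rapgef4os3, had 21 and 103 exon reads in Flox and 38 and 185 in the other group, beside 2082 to 5228 for Rapgef4. Rapgef3 encodes Epac1, the more widely expressed form, at chr15:97744770-97767972. Its levels were 6.04 and 9.10 CPM in Flox and 4.03 and 4.77 CPM in the other group, so both β-Tead1-KO-labelled values were lower. The log2 fold change of -0.77 (SE 0.30) did not pass (adjusted p = 0.270, edgeR with Benjamini-Hochberg adjustment). Without Flox library 1 it was -1.04, and without Flox library 2 it was -0.46. In such fits the lone Flox library is assumed to vary like the pair of the other group.

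Adcy1, the other calcium-stimulated cyclase and not one of the 10, was also higher. It lies at chr11:7063489-7178506 and measured 1.39 and 0.917 CPM in Flox and 17.6 and 18.5 CPM in β-Tead1-KO-labelled libraries. Every β-Tead1-KO-labelled value lay over 10 times above the Flox values, for a log2 fold change of 3.93 (SE 0.28, adjusted p = 0.00450, edgeR with Benjamini-Hochberg adjustment). It was 3.41 on junction reads (adjusted p = 0.00490) and 3.64 on intron reads (adjusted p = 0.0430, both edgeR with Benjamini-Hochberg adjustment), classes in which it passed the filter only through the group where it is high. Of the remaining cyclases, Adcy2 and Adcy4 did not pass and Adcy10 was too low to test.

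Promoter sequence was taken from RefSeq (GRCm38.p6) as the 250 bases before each start, with a window found for 7 of the 10 genes. Adcy6, Adcy8 and Pde3b had no window. Both strands were searched for the TEAD core motif GGAATG, the full cAMP response element TGACGTCA and its core TGACG, which also lies within the full element. Among 32851 windows of this length, 12.6% held the TEAD core, 1.55% the full element and 17.8% the short core. The 7 genes had 14 windows, as some have several starts. Windows of Pde8b overlap each other, so the 14 are not all separate sequences. The window of Rapgef3 and the Adcy3 window at chr12:4133147-4133396 lie wholly within annotated exons. Among the 14 windows the TEAD core was found in 1 window, that of another start of Adcy3. The short core was found in 1 window each of Adcy7, Adcy9 and Rapgef3. The Adcy3 window lies at chr12:4133903-4134152 (plus strand), and its match, in capitals, begins 195 bases before the start. That of Adcy9, at chr16:4420499-4420748 (minus strand), has the short core in capitals 24 bases before the start. The window of Adcy1, at chr11:7063183-7063432 (plus strand), is shown as the promoter of the other calcium-stimulated cyclase, and none of the 3 motifs was found in it. The sequences are 5′ to 3′.
Adcy3: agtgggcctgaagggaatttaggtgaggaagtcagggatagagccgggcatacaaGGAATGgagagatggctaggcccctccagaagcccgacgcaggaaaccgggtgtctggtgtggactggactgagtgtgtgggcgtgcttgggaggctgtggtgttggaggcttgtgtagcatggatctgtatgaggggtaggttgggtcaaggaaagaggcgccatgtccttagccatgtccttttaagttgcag
Adcy9: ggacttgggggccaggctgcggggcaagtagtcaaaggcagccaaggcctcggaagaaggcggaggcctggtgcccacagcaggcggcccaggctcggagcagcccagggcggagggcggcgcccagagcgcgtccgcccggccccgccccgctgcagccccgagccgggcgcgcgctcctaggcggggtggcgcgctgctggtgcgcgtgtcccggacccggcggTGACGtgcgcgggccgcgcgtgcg
Adcy1: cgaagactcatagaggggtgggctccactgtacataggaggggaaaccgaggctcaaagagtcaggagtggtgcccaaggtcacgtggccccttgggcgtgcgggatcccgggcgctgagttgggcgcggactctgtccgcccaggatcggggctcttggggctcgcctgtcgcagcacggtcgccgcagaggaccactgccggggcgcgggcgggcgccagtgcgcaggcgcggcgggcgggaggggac

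By a distance between centred log2 profiles over the 4 libraries, the genes most like Adcy8 were Kcns3 (distance 0.222), Kcnk2 (0.320) and Crabp1 (0.375). Kcns3, a modulatory potassium channel subunit, went from 0.929 and 0.776 CPM to 18.1 and 19.1 CPM. Kcnk2, a background potassium channel, went from 0.232 and 0.423 CPM to 12.1 and 10.6 CPM. Crabp1, a retinoic acid binding protein, went from 0.0464 and 0 CPM to 9.46 and 10.8 CPM. With 4 libraries, such a distance mostly ranks genes by the size of the step between genotypes. Kcnk2 and Crabp1 passed the filter on low counts only through the β-Tead1-KO-labelled group, where they are high, so they had to differ once tested.

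Other genes of the pathway were taken from 10 lists holding 159 genes, of which 136 were tested. Among them 2 were higher (Adcy1 and Camk4) and 6 lower (Crhr1, Cnr1, Vipr1, Gng4, Pkib and Hcn4), or 8 of 136 beside the 3.36% of all genes. The median log2 fold change of the 136 was -0.01, the same as for all genes. The count depended on single libraries, and the count over all genes tested moved in the same direction with each library left out.

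Of 23 receptors coupled to Gs or Gi that were tested, 3 were called lower and 0 higher in edgeR. In the same fit 10 had an unadjusted p below 0.05, beside 2522 of all 15014 genes. DESeq2 called 6 lower and 1 higher, beside 552 lower and 560 higher over all genes. The median log2 fold change of the 23 receptors was -0.51. The receptor called higher by DESeq2 and on unique reads was Vipr2, another receptor for vasoactive intestinal peptide. It measured 3.30 and 3.60 CPM in Flox and 7.62 and 7.62 CPM in the other group (adjusted p = 0.0710, edgeR with Benjamini-Hochberg adjustment on total exon reads). DESeq2 also called Glp1r, Gipr and Adora2b lower, which edgeR on total exon reads without a replicate block did not. Glp1r measured 151 and 221 CPM in Flox and 90.2 and 74.5 CPM in the other group (adjusted p = 0.0617). Gipr measured 56.9 and 109 CPM against 23.3 and 33.1 CPM (adjusted p = 0.0875). For Adora2b the levels were 6.55 and 7.48 CPM against 1.66 and 2.96 CPM (adjusted p = 0.0838, each from the same edgeR test). With library number as a replicate block, edgeR called Glp1r, Gipr and Adora2b lower, and 1157 genes passed over the whole table. On unique reads edgeR called Glp1r lower, and 680 genes passed over the whole table. Crhr1, the corticotropin-releasing hormone receptor, which couples to Gs, had 42 and 102 exon reads in Flox and 1 and 0 in β-Tead1-KO-labelled libraries. Its scaled count ratio was 0.00507, with an exact 95% counting interval of 0.000127 to 0.0287 (adjusted p = 0.0178, edgeR with Benjamini-Hochberg adjustment). Crhr1 passed the filter on low counts only through Flox, where it is high, so it had to differ once tested. Cnr1, the Gi-coupled cannabinoid receptor, measured 11.6 and 16.2 CPM in Flox and 0.986 and 0.863 CPM in the other group, a log2 fold change of -3.90 (adjusted p = 0.00542, edgeR with Benjamini-Hochberg adjustment). Vipr1, a Gs-coupled receptor for vasoactive intestinal peptide, measured 72.2 and 70.6 CPM in Flox and 29.4 and 26.6 CPM in the other group. Its log2 fold change was -1.35 (adjusted p = 0.0153, edgeR with Benjamini-Hochberg adjustment). On the side of G proteins and their regulators, 10 of 25 genes had an unadjusted p below 0.05. DESeq2 called 6 of them lower and 2 higher. In edgeR 1 of the 25 passed, Gng4, beside 3.36% of all genes tested. Gng4, a G protein gamma subunit, measured 194.9 and 230.1 CPM in Flox and 100.7 and 89.3 CPM in the other group, a log2 fold change of -1.16 (adjusted p = 0.0303, edgeR with Benjamini-Hochberg adjustment).

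Downstream of cAMP, 1 of 9 genes of protein kinase A and its inhibitors passed in edgeR, beside 3.36% of all genes tested. DESeq2 called 1 lower and 1 higher in this list, beside 552 lower and 560 higher over all genes. The gene passing in edgeR was Pkib, an inhibitor of the kinase, with 11.3 and 9.31 CPM in Flox and 3.45 and 2.85 CPM in β-Tead1-KO-labelled libraries, a log2 fold change of -1.71 (adjusted p = 0.0291, edgeR with Benjamini-Hochberg adjustment). Hcn4, a cation channel gated by cyclic nucleotides, was the 1 of 5 in its list, with 17.7 and 25.2 CPM against 6.14 and 7.47 CPM and a log2 fold change of -1.66 (adjusted p = 0.0313, edgeR with Benjamini-Hochberg adjustment). Both fell without overlap between the groups. In the list of Hcn4, DESeq2 also called 1 gene higher. Camk4, a calcium and calmodulin dependent kinase that phosphorylates CREB, was 1 of 13 in its list. It measured 1.95 and 3.88 CPM in Flox and 13.8 and 12.8 CPM in the other group, a log2 fold change of 2.21 (adjusted p = 0.0368, edgeR with Benjamini-Hochberg adjustment), and on junction reads it was 1.63 and did not pass (adjusted p = 0.136).

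In 4 lists no gene passed in edgeR. Of all 15014 genes tested, 2522 had an unadjusted p below 0.05 and DESeq2 called 1112. Of 12 further phosphodiesterases, 5 had an unadjusted p below 0.05 and DESeq2 called 0. Of 15 A-kinase anchoring proteins, 2 had an unadjusted p below 0.05 and DESeq2 called 0, and the same counts were 2 and 0 for 17 partners of Epac in exocytosis and Rap signalling. Of 14 genes known as targets of CREB, the cAMP-responsive transcription factor, 4 had an unadjusted p below 0.05 and DESeq2 called 3. Their median log2 fold change of 1.01 rested on the Flox libraries: it was 2.41 without Flox library 1 and 0.21 without Flox library 2, the library low in Fos.

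**Figure D4:**
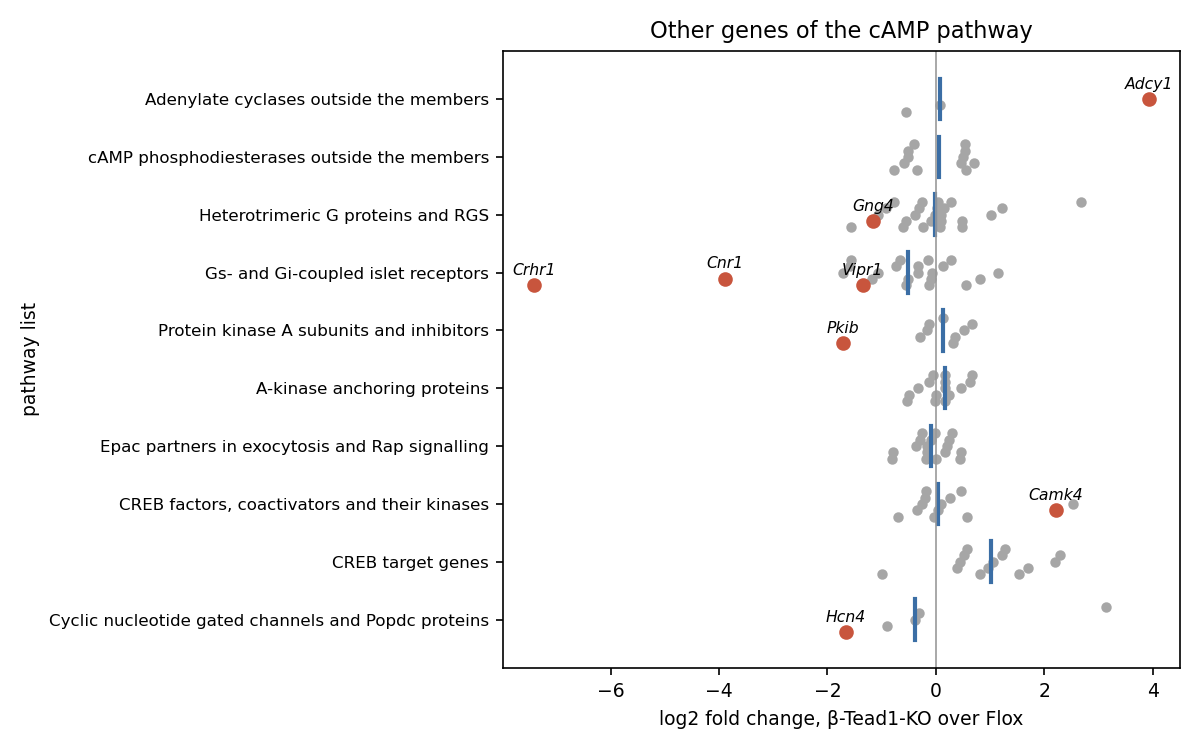
Log2 fold change, β-Tead1-KO-labelled libraries over Flox, of the tested genes of each pathway list, with the list median as a blue bar. Red named points are the 8 genes past an adjusted p of 0.05, and the bar of the CREB targets lies at 1.01.

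Markers of several cell types differed between the groups as well, and those of others between libraries of 1 genotype. The 6 acinar markers summed to 1435 and 5075 CPM in Flox and 716 and 5952 CPM in β-Tead1-KO-labelled libraries. The 5 lymphocyte markers summed to 38.5 and 14.1 CPM in Flox and 35.1 and 10.8 CPM in the other group. In both pairs library 2 was thus higher in acinar and lower in lymphocyte markers. The 7 mesenchymal markers summed to 60.6 and 45.7 CPM in Flox and 135.7 and 109.1 CPM in β-Tead1-KO-labelled libraries, with 2 of 7 passing, and the 5 erythroid markers to 121 and 52.5 CPM against 317 and 235 CPM, with 1 of 5 passing. The 5 δ-cell markers summed to 1819 and 2081 CPM in Flox and 625 and 467 CPM in the other group, with 2 of 5 passing, and the 6 α-cell markers to 17580 and 13861 CPM against 9762 and 7887 CPM, with 1 of 6 passing. Mesothelial markers were 8.22 and 28.8 CPM in Flox and 0.359 and 0.263 CPM in the other group. The 3 polypeptide and ε-cell markers summed to 2439 and 2617 CPM in Flox and 1078 and 572 CPM in the other group, all 3 with an unadjusted p below 0.05 and none passing. Over all genes tested, 2522 of 15014 had such an unadjusted p. The 10 β-cell markers had a median log2 fold change of -0.71, with 6 of 10 at an unadjusted p below 0.05. Of these 10, Slc2a2, the glucose transporter of β-cells, passed, with 840 and 1010 CPM in Flox and 156 and 218 CPM in the other group (adjusted p = 0.0138, edgeR with Benjamini-Hochberg adjustment). The 5 adipocyte markers summed to 13.6 and 4.87 CPM in Flox and 27.2 and 21.4 CPM in the other group, nearly all of it Fabp4, which did not pass (adjusted p = 0.267, edgeR with Benjamini-Hochberg adjustment), while Adipoq and Lep were at 0 in every library. The part of these cells in the levels of Adcy8, Adcy1 and the genes that fell was not tested.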

How the data were processed

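Per the file headers, the authors deposited for each lane raw counts of exon, junction and intron reads per gene. The submitters' processing notes name the build mm10 and, like the other sources used here, no aligner, counting tool or annotation release. The members and gene lists were chosen with earlier results of these data known, and 1 of 159 pathway entries, Pde2a, was not analysed here.

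Total exon reads of the 2 lanes were summed per library. The lanes differed little beyond sampling noise (chi-square over degrees of freedom 1.07 to 1.20) and the 2 libraries of a genotype far more (66.8 and 48.4). Genes were filtered with filterByExpr (minimum count 10, minimum total 15), scaled with TMM and tested, 2-sided, by edgeR's quasi-likelihood method (version 4.0.16, under R 4.3.3), adjusted by Benjamini-Hochberg over all 15014 tested genes, at a threshold of 0.05. Standard errors are the log2 fold change over the root of F, and 95% intervals of a fold from the fit's degrees of freedom, unadjusted. Junction and intron reads were tested alike. Levels between genes were divided by the exon length in the files. Likeness to Adcy8 is the Euclidean distance of centred log2(CPM + 0.5) over genes with a mean of at least 5 CPM. Named genes were the 10 members, Tead1, the pathway genes past the threshold and the 3 genes most like Adcy8. Fos, Cenpo, Rapgef4os3, Adcy2, Adcy4, Adcy10, Vipr2, Glp1r, Gipr, Adora2b, Slc2a2 and Fabp4 were added after their values were seen. DESeq2 1.42.0, voom of limma 3.58.1, other filters, scalings, read classes, lanes and left-out libraries were alternatives. Proteins were not used here. Exact binomial intervals are at 95% and cover counting error only, and the estimated biological coefficient of variation was 24.3%.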

Additional observations from a re-analysis of the deposited data

How the results depend on the processing

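Adcy8 and Adcy1 kept the same direction under each of the 16 alternatives that tested them, with log2 fold changes of 3.92 to 5.20 and 3.41 to 4.30. They passed under those that kept all 4 libraries. Among these, unique and junction reads for Adcy8 and junction and intron reads for Adcy1 add no separate support. There the genes passed the filter on low counts only through the β-Tead1-KO-labelled group, where they are high. Under the filter of 1 CPM in each library neither was tested, and the number of the 10 genes that passed was 0. With 1 library left out, the log2 fold change of Adcy8 was 4.92 to 4.98. Genes called over the whole table (504) numbered 1112 with DESeq2, 108 on intron reads and 67 to 2359 with 1 library left out. Pathway genes called (8) numbered 24 with DESeq2, 5 with the CPM filter, 3 on intron reads and 2 to 39 with 1 library left out. The direction turned for Adcy7 on junction reads (-0.025) and intron reads (-0.33), without Flox library 1 (-0.25) and without β-Tead1-KO library 1 (-0.20), in a range of -0.25 to 0.71 with 1 library left out. It turned for Adcy9 on intron reads (0.23), without Flox library 2 (0.0019) and without β-Tead1-KO library 1 (0.070), in a range of -0.24 to 0.070, and for Pde3b without Flox library 2 (-0.0067), in a range of -0.0067 to 0.11. The causes were not tested. Pathway calls were lost for Camk4 on junction and intron reads, for Cnr1, Pkib, Hcn4, Vipr1 and Gng4 on intron reads, and for Crhr1 with voom. Without either of the β-Tead1-KO libraries, Crhr1, Camk4, Pkib, Hcn4, Vipr1 and Gng4 did not pass. Of 48 alternative values of cyclase shares, 21 moved by more than the spread between libraries.

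With library number as a replicate block, 1157 genes passed, 1 of the 10 and 21 of the pathway lists. The deviations of same-numbered libraries correlated at 0.384 over 15014 genes, but with 2 pairs the numbers were not taken as pairing the samples.

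Depth limits Adcy5, Adcy7, Pde8b and the Flox level of Adcy8, which rest on 7 to 93 exon reads per library.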

Other observations

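Genes next to Adcy8 and Adcy1 were looked at after the data were seen. Within 1000 kb of Adcy8, the tested genes Asap1, Fam49b and Efr3a had log2 fold changes of 0.02, 0.09 and -0.18, and none of the 3 passed. Asap1, which encodes a GTPase-activating protein for Arf, is the nearest at 316 kb. Within the same distance of Adcy1, 17 genes were tested and none passed. The largest difference among them was in Nacad, with 1.30 and 3.95 CPM in Flox and 0.179 and 0.338 CPM in β-Tead1-KO-labelled libraries, a log2 fold change of -3.25 (SE 0.75, adjusted p = 0.0950, edgeR with Benjamini-Hochberg adjustment). The nearest, Igfbp3, an insulin-like growth factor binding protein at 27.6 kb, measured 117 and 99.0 CPM in Flox and 154 and 171 CPM in the other group, a log2 fold change of 0.59 (adjusted p = 0.154, edgeR with Benjamini-Hochberg adjustment).

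Among the further phosphodiesterases, also described after their values were seen, the cAMP-specific Pde4b measured 51.5 and 66.7 CPM in Flox and 78.3 and 92.5 CPM in β-Tead1-KO-labelled libraries (adjusted p = 0.248), and Pde4d measured 17.9 and 23.6 CPM against 29.1 and 38.9 CPM (adjusted p = 0.196). Pde8a, the close relative of Pde8b, measured 79.3 and 72.9 CPM in Flox and 58.7 and 56.8 CPM in the other group (adjusted p = 0.262, all 3 from edgeR with Benjamini-Hochberg adjustment). The groups did not overlap for these 3 genes, and none passed.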
